A study of Mus musculus with 12 samples.

Results

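The 9 genes described here, Egr1, Egr2, Egr3, Klf2, Klf4, Klf6, Klf10, Nr4a1 and Ier2, are early response genes that were picked by their symbols from the 31017 genes of the deposited count tables. All 9 were found in both tables, 1 for each culture format, and all 9 were among the 13763 genes with enough counts to test. RNA was measured in mouse 4T1 cells, a mammary carcinoma line, in 6 groups of 2 libraries each. The control cells were pools of clones that had been given control sgRNA, and the other cells were 2 single clones, called clone 1 and clone 2, raised after nucleofection with Cas9 and sgRNA against Etv4, an ETS family transcription factor. Each was grown on plastic (2D) or inside collagen I gels (3D). Every group shares the line and the nucleofection. All 3D groups also share a collagenase digestion of the gel, for minutes at body temperature, before RNA was taken. Each knockout is 1 clone, so a difference between a clone and the control pools can belong to that clone alone. The labels give a pair of collagen concentrations without saying which library had which.

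Early response genes are switched on within minutes of a growth factor, mechanical or stress signal, with no need for new protein. The signal reaches their promoters through factors that are already present, among them SRF with its ternary complex partners, the MEF2 factors downstream of the kinase ERK5, and CREB. Egr1, Egr2 and Egr3 are zinc finger factors that bind GC-rich sites, the Klf genes encode Krüppel-like zinc finger factors, Nr4a1 encodes the orphan nuclear receptor Nur77, and Ier2 encodes a small early response protein. The messages are short-lived, and handling of cells, enzymatic dissociation included, is known to raise many of them.

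The promoters show which of the known early response inputs have a matching letter pattern close to the start. RefSeq windows on GRCm38.p6, the assembly also called mm10, were found for 5 of the 9 members. The 4 printed below belong to the Egr, Klf and Nr4a members that rose most on collagen among those with a window, and each is the 220 bases that end 30 bases before the start. Capitals mark a CArG box (the SRF element), a MEF2 motif, or TGACG and its complement CGTCA, the core of the CREB element. Egr2 is shown for 1 of its 5 listed starts, at chr10:67537619-67537838 on the plus strand. This window holds a CArG box, 72 bases before the start, and 2 copies of TGACG or its complement, and it was chosen with these motifs known. The overlapping windows at the starts 67537870 and 67537930 hold the same matches. The Egr2 window at the start 67535499 held neither CArG box nor TGACG. The window at the start 67537566 held a CArG box but no TGACG. Klf2 is at chr8:72318812-72319031 on the plus strand, Nr4a1 at chr15:101266596-101266815 on the plus strand and Klf4 at chr4:55532506-55532725 on the minus strand.
Egr2: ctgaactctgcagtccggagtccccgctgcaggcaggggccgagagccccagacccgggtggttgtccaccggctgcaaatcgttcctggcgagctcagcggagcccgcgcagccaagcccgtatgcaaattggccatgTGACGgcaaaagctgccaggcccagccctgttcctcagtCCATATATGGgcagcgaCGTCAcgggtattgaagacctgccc
Klf2: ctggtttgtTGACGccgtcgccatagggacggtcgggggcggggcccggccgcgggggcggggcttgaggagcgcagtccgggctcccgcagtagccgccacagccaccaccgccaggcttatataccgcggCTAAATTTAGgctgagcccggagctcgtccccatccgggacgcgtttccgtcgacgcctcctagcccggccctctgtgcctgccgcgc
Nr4a1: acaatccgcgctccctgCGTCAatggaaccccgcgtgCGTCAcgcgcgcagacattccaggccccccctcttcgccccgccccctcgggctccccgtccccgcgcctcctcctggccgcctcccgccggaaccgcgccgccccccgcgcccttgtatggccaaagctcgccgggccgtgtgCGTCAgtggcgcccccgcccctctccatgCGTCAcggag
Klf4: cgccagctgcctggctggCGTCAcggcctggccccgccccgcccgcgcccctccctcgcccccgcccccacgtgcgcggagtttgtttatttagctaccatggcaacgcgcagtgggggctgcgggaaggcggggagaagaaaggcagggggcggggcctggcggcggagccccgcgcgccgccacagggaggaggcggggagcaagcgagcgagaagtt

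The printed Egr2 window carried a CArG box flanked on each side by the CREB core. As it was chosen with these motifs known, the shares of all windows are no test of the matches. Of all 32851 RefSeq windows of 250 bases, 1.47% held a CArG box on either strand and 17.8% held TGACG. Klf2 carried a MEF2 motif 118 bases before its start, a motif that 2.92% of all windows held, together with 1 copy of TGACG. Nr4a1 carried 4 copies of the complement CGTCA and 1 copy of CCGGAA, the ETS core, which 12% of all windows held. Klf4 carried 1 CGTCA and 4 copies of GGGCGG, the GC box that Klf and Egr-like factors can bind and that 32.7% of all windows held. The Klf6 window, not printed, held 1 GGGCGG and neither CArG box, MEF2 motif, TGACG nor CCGGAA. A match of letters is a description of the window only.

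The libraries held 12.3 to 18.7 M counts in 2D and 26.5 to 33.2 M in 3D, and levels are given as CPM, read counts per M counts of the TMM-scaled library size (TMM, trimmed mean of M values). The libraries of a pair differed beyond sampling noise in every group, and the labels do not say whether they were separate cultures, which means that the p-values reflect no more than library-to-library spread. Mean Etv4 levels in 2D were 77.1 CPM (control), 49.5 (clone 1) and 47.6 (clone 2), and in 3D 97.1, 69.5 and 89.1 CPM in the same order. In 3D its level in clone 2 did not pass the test against control (log2 change -0.12 ± 0.06 (SE), adjusted p = 0.116 by edgeR's quasi-likelihood test). A frameshift need not lower the message, so these levels do not show whether the protein was made. Etv4 lies on chromosome 11, where the median log2 change of all 1122 tested genes in clone 1 was -0.38 in 2D and -0.43 in 3D, beside -0.64 and -0.48 for Etv4. The part of this chromosome-wide difference in the Etv4 level was not tested. Epithelial markers summed to 2766 to 4674 CPM in all 12 libraries, with Epcam averaging 180 to 442 CPM by group.

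Whole chromosomes differed between the clones and control. In clone 2 the median log2 change of the 776 tested genes of chromosome 1 was -0.29 in 2D and -0.53 in 3D, and in clone 1 that of chromosome 16 was -0.35 and -0.32. On the chromosomes that carry the members the medians were -0.08 to 0.19 (2D) and -0.12 to 0.21 (3D) in clone 1 and -0.06 to 0.20 (2D) and -0.11 to 0.14 (3D) in clone 2. Between the clones they ran from -0.09 to 0.28 in 2D and from -0.18 to 0.26 in 3D.

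On mm10, the build of the deposited counts, the 3 Egr genes lie on separate chromosomes. Egr1 occupies 34859823 to 34864984 of chromosome 18, Egr2 67535475 to 67542188 of chromosome 10 and Egr3 70077203 to 70082614 of chromosome 14. Among the Klf genes, Klf4 lies at 55527143 to 55532466 of chromosome 4, Klf6 at 5861482 to 5870394 of chromosome 13 and Klf10 at 38291463 to 38300706 of chromosome 15. Chromosome 8 carries Klf2 at 72319033 to 72321656 and Ier2 at 84661331 to 84662852, and Nr4a1 lies at 101254269 to 101274795 of chromosome 15. All 9 are protein-coding, and in the GENCODE annotation their exons overlap no other gene on either strand.

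All 9 members were higher on collagen than on plastic in control cells and in clone 1, and 8 of 9 were higher in clone 2, where Klf10 was lower. The 3 Egr genes and Klf2 were nearly silent on plastic and reached levels from 4.70 CPM (Egr2) to 904 CPM (Egr1) on collagen. Klf6 and Klf10 were well expressed in both formats. Detection differed between the formats for genes at large. The 2D libraries had reads for 13459 to 13875 genes and the deeper 3D libraries for 17135 to 17595. A gain from near silence is therefore not particular to the members. In control cells 9 of 9 members were called higher, against 41.7% of all genes tested, and 7 of 9 were at least 8-fold higher, against 9.5%. The same counts were 9 (39.8% of all genes) and 7 (9.79%) in clone 1, and 8 (42.5%) and 7 (10.4%) in clone 2, where 1 member was lower, against 37% of all genes. Egr2 and Egr3 had so few counts in 2D that they entered the test only through the 3D libraries, and so had to be higher there. Without these 2, 7 of 7 members were called higher in control and in clone 1, and 6 of 7 in clone 2. In each of the 3, 5 members were at least 8-fold higher. The members were chosen with earlier results of these data known, so the shares of all genes are a background and no test of the list. Summed over the members, their share of all counts was 0.0361 to 0.042% in 2D and 0.218 to 0.274% in 3D. The gel, its collagenase digestion and the table of counts all go with the format, and what each contributes cannot be told apart.

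**Figure D1:**
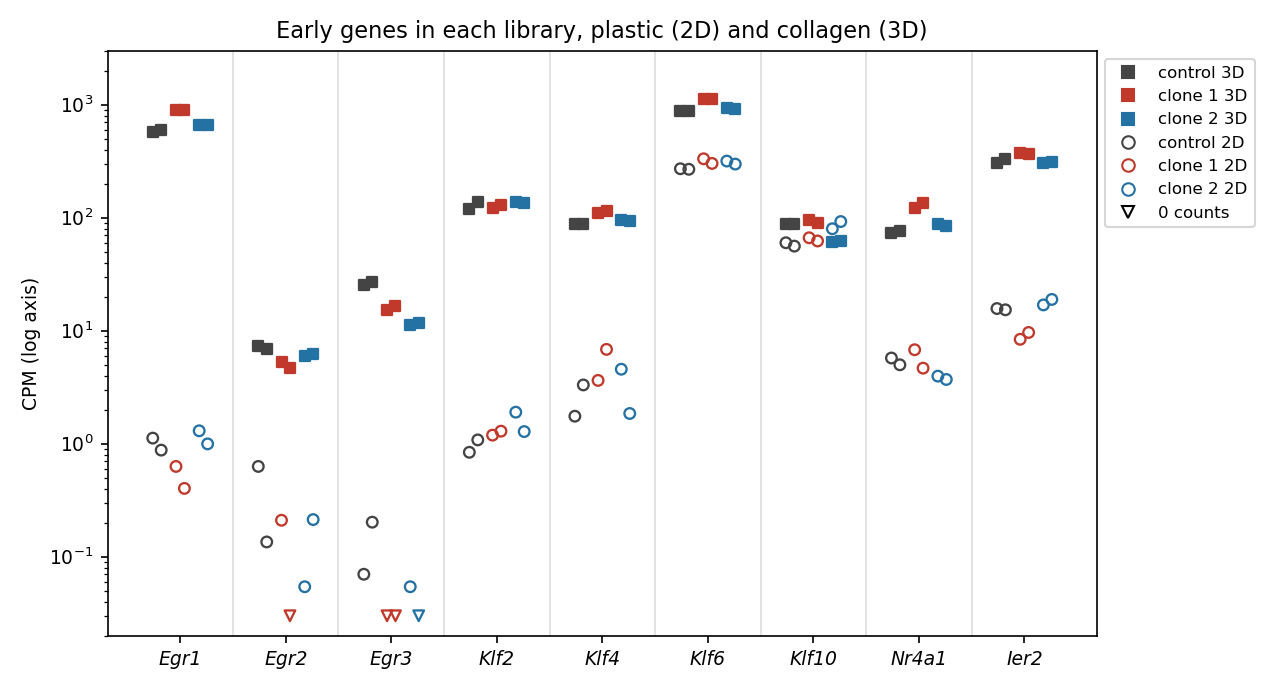
CPM (vertical log axis) of each member (horizontal axis) in each library, with open circles for 2D, filled squares for 3D, colours for control and the clones, and triangles at the bottom for libraries with 0 counts. For each member apart from Klf10 the 6 collagen libraries lie above the 6 plastic libraries, and for Egr1 the gap runs from 1.30 to 570 CPM.

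Egr1, the best known sensor of growth factor and mechanical signals in the family, changed most among the members whose ratio rests on more than a few counts. On plastic its levels were 1.12 and 0.877 CPM in the control pair, 0.629 and 0.402 in the pair of clone 1 and 1.30 and 0.996 in that of clone 2. On collagen they were 570 and 592 CPM in the control pair, 904 and 892 in the pair of clone 1 and 661 and 662 in that of clone 2. The formats did not overlap, and on collagen both libraries of clone 1 lay above those of control and clone 2. The counts gave a ratio of 584 in control (95% counting interval 406 to 872), 1716 in clone 1 (1022 to 3138) and 566 in clone 2 (412 to 800). These intervals cover counting error only. In control the log2 change was 9.18 ± 0.10 (SE, adjusted p = 2.9e-29), which placed Egr1 at rank 31 of 13763 genes.

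Egr2, known as Krox20 from hindbrain and Schwann cell development, was at the edge of detection on plastic, with control counts of 9 and 2, clone 1 counts of 3 and 0 and clone 2 counts of 1 and 3. Its collagen levels came to 7.26 and 6.91 CPM in the control pair, 5.32 and 4.70 in the pair of clone 1 and 5.91 and 6.24 in that of clone 2. The ratio was 18.8 in control (10.4 to 37.9), 44.5 in clone 1 (15.1 to 217) and 49.3 in clone 2 (19.1 to 182), and the wide intervals overlap. It was the lowest member per kilobase in every collagen group, whereas Egr3 was last in every plastic group.

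Egr3, a family member that Egr1 and calcium signals also induce, had plastic counts of 1 and 3 in control, 0 and 0 for clone 1, and 1 and 0 for clone 2. On collagen it reached 25.6 and 26.8 CPM in the control pair, 15.3 and 16.4 in the pair of clone 1 and 11.3 and 11.6 in that of clone 2. The 3 collagen groups did not overlap, and control was the highest. The ratio was 191 in control (74.3 to 701) and 372 in clone 2 (66.6 to 14735), and in clone 1 Egr3 was at least 142-fold higher, taking a floor of 3 counts over its plastic libraries.

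Klf2, which marks laminar flow and quiescence in endothelium and is a classic ERK5 and MEF2 target, was close to silent on plastic. Its levels there were 0.839 and 1.08 CPM in the control pair, 1.19 and 1.29 in the pair of clone 1 and 1.90 and 1.28 in that of clone 2. On collagen it stood at 120 and 139 CPM in the control pair, 122 and 129 in the pair of clone 1 and 137 and 136 in that of clone 2. On collagen both clones lay within the range of the control pair, and the log2 change was 7.06 ± 0.14 in control, 6.66 ± 0.14 in clone 1 and 6.38 ± 0.13 in clone 2.

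Klf4, a pluripotency and epithelial differentiation factor, was low on plastic, at 1.75 and 3.31 CPM in the control pair, 3.63 and 6.83 in the pair of clone 1 and 4.56 and 1.85 in that of clone 2. These pairs spread widely. In the gels its levels were 87.3 and 87.2 CPM in the control pair, 110 and 115 in the pair of clone 1 and 94.8 and 93.6 in that of clone 2, with no overlap between groups. The ratio was 34.4 in control (27.3 to 43.8), 22 in clone 1 (18.5 to 26.2) and 27.8 in clone 2 (23.1 to 33.9).

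Klf6, a broadly expressed factor of injury responses, was the most abundant member per kilobase on plastic. There it had 271 and 268 CPM in the control pair, 332 and 302 in the pair of clone 1 and 317 and 298 in that of clone 2. On collagen it rose to 879 and 884 CPM in the control pair, 1121 and 1129 in the pair of clone 1 and 943 and 913 in that of clone 2. The formats were far apart, yet the change was modest beside the Egr genes, with log2 1.71 ± 0.05 in control, 1.83 ± 0.05 in clone 1 and 1.59 ± 0.05 in clone 2.

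Klf10, first described as a gene induced by TGF-beta, was the only member whose direction between formats differed among the cells. On plastic it stood at 60.0 and 56.0 CPM in the control pair, 66.4 and 62.2 in the pair of clone 1 and 79.8 and 92.4 in that of clone 2. On collagen its levels were 88.6 and 87.3 CPM in the control pair, 94.9 and 89.3 in the pair of clone 1 and 61.2 and 62.8 in that of clone 2. Clone 2 was thus the highest group on plastic and the lowest on collagen. Collagen against plastic gave log2 0.60 ± 0.07 in control (adjusted p = 2e-08), 0.52 ± 0.07 in clone 1 (2.7e-07) and -0.47 ± 0.07 in clone 2 (7.4e-07).

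Nr4a1, whose product acts without a known physiological ligand, was detected in every library. Its plastic levels were 5.73 and 4.99 CPM in the control pair, 6.78 and 4.66 in the pair of clone 1 and 3.96 and 3.70 in that of clone 2. In 3D its levels were 73.9 and 76.0 CPM in the control pair, 122 and 135 in the pair of clone 1 and 87.2 and 84.2 in that of clone 2. The collagen groups did not overlap, and the ratio was 14.0 in control (11.9 to 16.5) and 22.3 in each clone (19 to 26.3 in clone 1, 18.7 to 26.8 in clone 2).

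Ier2 was at 15.7 and 15.3 CPM in control on plastic, 8.39 and 9.64 in clone 1 and 16.9 and 18.9 in clone 2. Collagen libraries held it at 307 and 328 CPM in the control pair, 377 and 369 in the pair of clone 1 and 305 and 310 in that of clone 2. Clone 1 was the lowest group on plastic and the highest on collagen, and its log2 change of 5.38 ± 0.08 exceeded that of control (4.35 ± 0.07) and of clone 2 (4.11 ± 0.07).

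The members did not rank alike in the 2 formats. In CPM per kilobase of exon, control cells on plastic had Klf6 first at 61.4 ± 0.487 (SD, n = 2), then Klf10 at 13.9 and Ier2 at 10.2, with Nr4a1 at 1.53 and the others below 1. Klf4 and Klf2 did not differ beyond their spread there, nor did Egr2 and Egr3 at the bottom. On collagen the control order was Ier2 at 209 and Klf6 at 201, which did not differ beyond their spread, then Egr1 at 130, Klf2 at 70, Klf4 at 28.6, Nr4a1 at 21.4, Klf10 at 21, Egr3 at 5.94 and Egr2 at 2.09. Nr4a1 and Klf10 did not differ beyond their spread. In both clones on collagen Klf6 was first, ahead of Ier2 and Egr1, and Egr3 and Egr2 were last.

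Other genes of the pathway were mostly higher too, with smaller medians, where 41.7% of all genes were called higher. The share called lower is not given for control, and in clone 2 it was 37%. The median log2 change of the 9 members in control was 4.35, beside 0.10 for all genes tested, where the middle 90% of genes ran from -1.54 to 5.93. Of 14 other Egr, Klf, Nr4a and Ier genes tested, 11 were higher and 2 lower, with a median of 1.53. Egr4 and Nr4a3 entered the test only through the 3D libraries, and without them 9 of 12 were higher and 2 lower, with a median of 1.45. The higher genes included Nr4a2 (log2 3.25 ± 0.14), a close relative of Nr4a1, and Klf5 (3.12 ± 0.06), a factor of proliferating epithelium. Klf13 (1.97 ± 0.08) and Klf3 (1.60 ± 0.07) were higher too. Egr4 and Nr4a3 had no count in the control plastic libraries and were at least 5.79-fold and 14.0-fold higher on collagen, with the same floor of 3 counts over the group. The 2 lower genes, named after their values were seen, were Ier5 (-0.25) and Ier5l (-1.20).

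Of 21 AP-1 and other immediate early genes, 17 were higher and 4 lower, with a median of 2.15. Fos (8.83 ± 0.13) and Fosb (8.34 ± 0.15), subunits of AP-1, came close to Egr1 in size, and Dusp1 (4.63 ± 0.09), a phosphatase that turns MAP kinases off, and Jun (3.24 ± 0.06) were higher too. Gadd45b (-4.21), a stress response gene named after its value was seen, was among the 4 lower. Of 15 upstream factors and corepressors, 12 were higher and 3 did not pass the test, with a median of 0.97. The 4 with the smallest p were Elk4 (1.59 ± 0.06), an SRF partner, Mkl1 (1.85 ± 0.08) and Mkl2 (1.44 ± 0.07), the actin-sensing SRF coactivators, and Atf1 (2.04 ± 0.09), a CREB relative. Srf itself had a log2 change of -0.08 that did not pass the test.

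**Figure D2:**
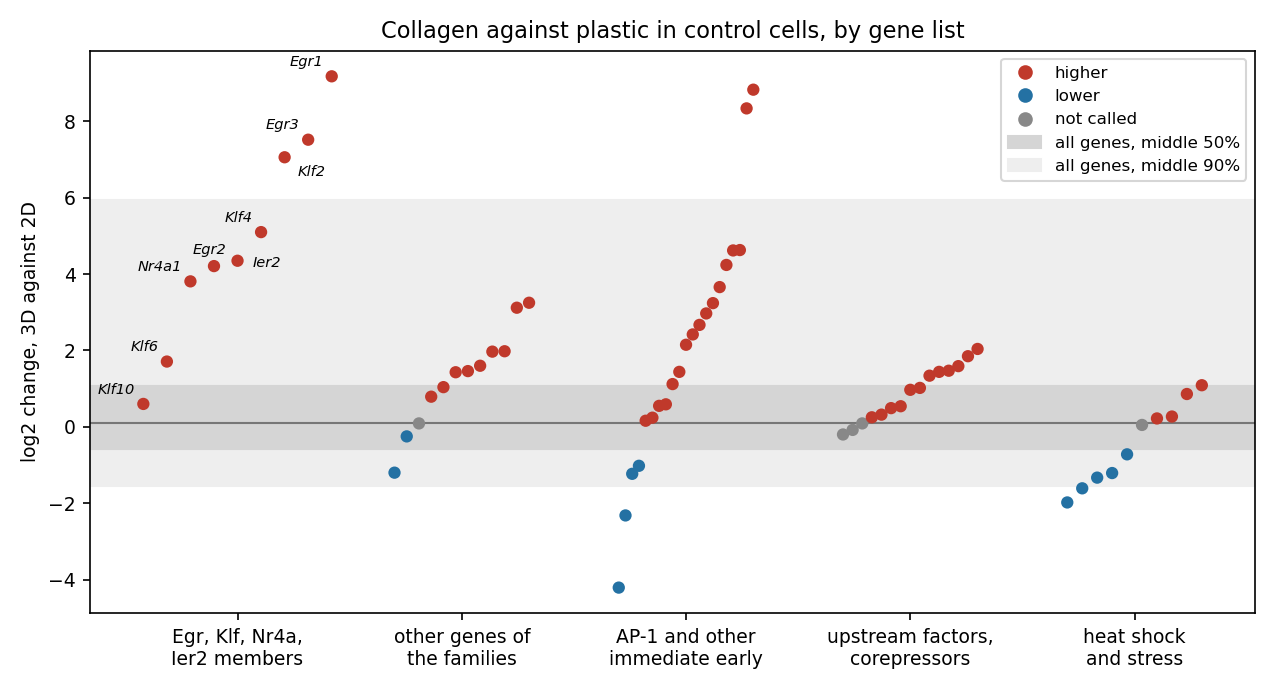
Log2 change, collagen against plastic in control cells (vertical axis), for each tested gene of 5 lists (horizontal axis); points are genes, coloured by the test at an adjusted p of 0.05, bands are the middle 50% and 90% of all genes tested, and Egr4 and Nr4a3, with 0 counts on plastic, are left out. The members run from Klf10 at 0.60 to Egr1 at 9.18, and the heat shock list has a median of -0.33.

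Because the gels were digested with enzyme, heat shock and stress genes known to rise on dissociation were read beside the members. Of 10 tested, 4 were higher, 5 were lower and 1 did not pass the test, where 41.7% of all genes were higher. The share of all genes called lower is given here for clone 2 only, at 37%. The 5 lower genes are therefore not read as a trait of the list. Hspe1 (-1.98 ± 0.06), Hspd1 (-1.61 ± 0.05), Hspa8 (-1.33 ± 0.05) and Hsp90aa1 (-1.21 ± 0.05), all chaperones, were lower on collagen. Hsph1 (1.09 ± 0.06), Dnajb1 (0.27 ± 0.07) and Dnaja1 (0.22 ± 0.06), named after their values were seen, were among the higher genes. Hspa1b, an inducible Hsp70 gene, had a log2 change of 0.05 that did not pass, and the listed Hspa1a had too few counts to test. Many early genes are on lists of dissociation genes themselves, and the part of the digestion in the members' change was not tested.

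Markers of other cell types were low in both formats. The 7 leukocyte markers summed to 1.68 to 5.40 CPM on plastic and 7.59 to 11.1 on collagen, most of it Cd68, with Adgre1 and Itgam at 0 in every library and Ptprc at most 0.313 CPM by group mean. The 6 fibroblast markers summed to 3.78 to 7.23 CPM on plastic and 19.9 to 23.8 on collagen, almost all of it Pdgfra, with Pdgfrb, Lum and Col3a1 at 0 in every library. The 5 endothelial markers summed to 8.53 to 14.9 CPM on plastic and 3.53 to 5.86 on collagen, mostly Egfl7. In bulk RNA, fewer cells of a type and less RNA per cell cannot be told apart.

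On collagen, clone 1 carried more Egr1, Nr4a1, Klf4, Klf6 and Ier2 than control and less Egr3 and Egr2. Of the 9 members, 7 passed the test, 5 higher and 2 lower, while 45.1% of all genes passed, 22% higher and 23% lower. Egr1 was 1.55-fold the control level (log2 0.63 ± 0.05, adjusted p = 6.9e-11) and Nr4a1 1.72-fold (0.78 ± 0.07, 1.6e-09). The increases of Klf6 (0.35 ± 0.05, 2.7e-06), Klf4 (0.36 ± 0.10, 0.00444) and Ier2 (0.23 ± 0.05, 0.00063) were smaller. Egr3 was at 60.7% of control (-0.72 ± 0.12, 1.4e-05), so members of 1 family went in opposite directions in the same cells. Klf2 (-0.04 ± 0.07) and Klf10 (0.07 ± 0.06) did not pass the test.

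Some of these calls rest on single libraries or on the tool. Egr2 in clone 1 on collagen (-0.50 ± 0.20, adjusted p = 0.045) passed by a narrow margin and failed when any 1 of the 6 collagen libraries was left out (adjusted p of 0.079 to 0.321), or with chromosomes centred, that is with the median of each chromosome removed (-0.38, 0.15), and over all alternatives its adjusted p ran from 0.0003 to 0.321. Klf4 in clone 1 on collagen failed without either control library (0.0635 and 0.0639), without clone 1 replicate 2 (0.0531) and in DESeq2's Wald test (0.557). Egr1, Egr3, Klf6, Nr4a1 and Ier2 kept their calls in clone 1 on collagen under every alternative run.

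**Figure D3:**
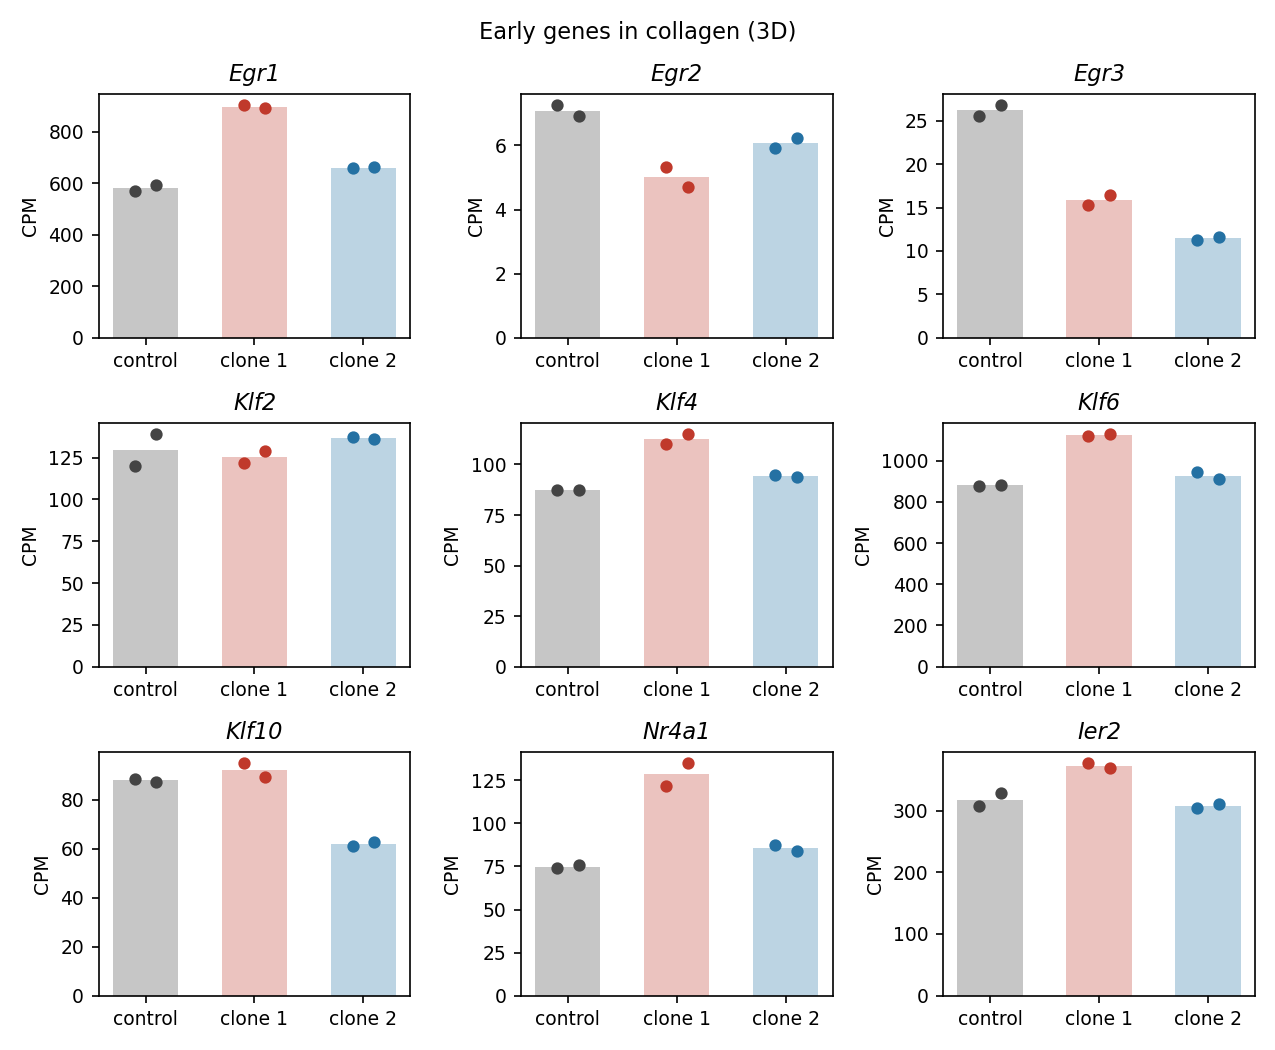
CPM on collagen (vertical axis, from 0), 1 panel for each member, in control, clone 1 and clone 2 (horizontal axis); points are single libraries and bars the mean of 2. Egr1 and Nr4a1 are highest in clone 1, Egr3 falls from control to clone 1 to clone 2, and Klf10 is lowest in clone 2.

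Clone 2 differed from control on collagen in fewer members. Here 4 of 9 passed the test, 2 higher and 2 lower, with 29.2% of all genes passing, 11.9% higher and 17.4% lower. Egr3 was at 43.8% of control (log2 -1.19 ± 0.12, adjusted p = 2.1e-08) and Klf10 at 70.5% (-0.50 ± 0.07, 1.3e-06). Egr1 (0.19 ± 0.05, 0.0041) and Nr4a1 (0.19 ± 0.07, 0.0446) were each 1.14-fold the control level. Klf2 (0.08), Klf4 (0.11), Klf6 (0.07), Ier2 (-0.05) and Egr2 (-0.22) did not pass. With chromosomes centred, Klf6 was 0.21 and passed (adjusted p = 0.00374). Klf4 passed in a fit of the collagen libraries alone (0.11, 0.0419). The Egr1 call failed without control replicate 1 (adjusted p = 0.087) or clone 2 replicate 2 (0.0505) on collagen. The Nr4a1 call failed without any 1 of the 6 collagen libraries (0.059 to 0.28) and in DESeq2's Wald test (0.0629), and the count without control replicate 1 or clone 2 replicate 2 was 2 of 9. Egr3 and Klf10 kept their calls under every alternative. The 2 control libraries of this format serve both clones, so the changes of the clones against control are not independent of each other.

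Between the clones on collagen, 7 of 9 members were lower in clone 2 than in clone 1, where 28.5% of all genes were lower. The differences were largest for Nr4a1 (log2 -0.58 ± 0.07, adjusted p = 8.9e-08) and Klf10 (-0.57 ± 0.07, 4.4e-08), followed by Egr3 (-0.47 ± 0.12, 0.00198) and Egr1 (-0.44 ± 0.05, 1.9e-08). Klf6 and Ier2 were each at 82.5% of clone 1, with adjusted p of 4.1e-05 and 5.5e-05. Klf4 (-0.25 ± 0.10, 0.0357) lost its call when any 1 library of control or of either clone on collagen was left out (0.0829 to 0.187) and in DESeq2's Wald test (0.676). Egr2 (0.28 ± 0.21) and Klf2 (0.12 ± 0.07) did not pass, but both passed in a fit of the collagen libraries alone (0.0483 and 0.0116), higher in clone 2.

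On plastic, where the libraries were less deep, the counts of called members did not stand out from the shares of all genes. The Egr genes were too low there for more than wide errors. Clone 1 differed from control in 3 of 9 members, with 39.8% of all genes passing. Ier2 was at 57.9% of control (log2 -0.79 ± 0.11, adjusted p = 3.8e-06), and its 2 libraries lay below both control libraries. Klf6 was 1.18-fold the control level (0.23 ± 0.05, 0.00109). Klf4 was 2.02-fold (1.01 ± 0.31, 0.0102), but without control replicate 1 it was 0.63 (adjusted p = 0.142) and without clone 1 replicate 2 it was 0.52 (0.299), and it also failed in DESeq2's Wald test (0.0924) and in a fit of the plastic libraries alone (0.053). Egr1 (-0.92 ± 0.40, 0.0911), Klf10 (0.15 ± 0.08), Nr4a1 (0.11 ± 0.18) and Klf2 (0.36 ± 0.38) did not pass, nor did Egr2 and Egr3, whose counts are given above. Without control replicate 2, Egr2 was at -2.43 in clone 1 and passed (0.0475).

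Clone 2 differed from control on plastic in 2 of 9 members, with 33.9% of all genes passing. Klf10 was 1.48-fold the control level (log2 0.57 ± 0.07, adjusted p = 1.4e-06), the opposite of its change on collagen. Klf6 was 1.14-fold (0.19 ± 0.05, 0.00735), and it failed without clone 2 replicate 1 (0.11), when 1 of 9 members was called, and in a fit of the plastic libraries alone (0.0732). Nr4a1 was at 71.8% of control and missed the threshold (-0.48 ± 0.19, adjusted p = 0.0505, with 0.0331 to 0.247 over the alternatives). Klf2 (0.76 ± 0.34), Klf4 (0.41 ± 0.33), Ier2 (0.20 ± 0.10) and Egr1 (0.23 ± 0.31) did not pass. Without clone 2 replicate 2 Klf4 was 0.84 and passed (0.0374). Egr2, with 4 counts in clone 2 against 11 in control, and Egr3, with 1 against 4, did not pass either.

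Between the clones on plastic, 4 of 9 members passed, with 41.6% of all genes passing. Ier2 was 1.99-fold higher in clone 2 than in clone 1 (log2 0.99 ± 0.11, adjusted p = 6.1e-08) and Klf10 1.33-fold (0.42 ± 0.07, 4.5e-05). Egr1 (1.15 ± 0.37, 0.0192) rested on 14 counts in clone 1 and 38 in clone 2 and failed without clone 1 replicate 2 (0.168) or clone 2 replicate 1 (0.187). Nr4a1 (-0.59 ± 0.19, 0.0129) failed without clone 1 replicate 1 (-0.28, 0.387) or clone 2 replicate 2 (0.0594) and with chromosomes centred (-0.48, 0.0505). Both failed in a fit of the plastic libraries alone. Klf4 (-0.61 ± 0.28, 0.0878) did not pass, and its groups overlapped. It passed without clone 1 replicate 1 (-1.02, 0.00871) or clone 2 replicate 1 (-1.47, 0.00183), with no filter on low counts (-0.64, 0.00668) and with chromosomes centred (-0.86, 0.0194). Klf6 (-0.04 ± 0.05) and Klf2 (0.40 ± 0.33) did not pass, nor did Egr2 and Egr3, with 4 counts or fewer in each clone.

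**Figure D4:**
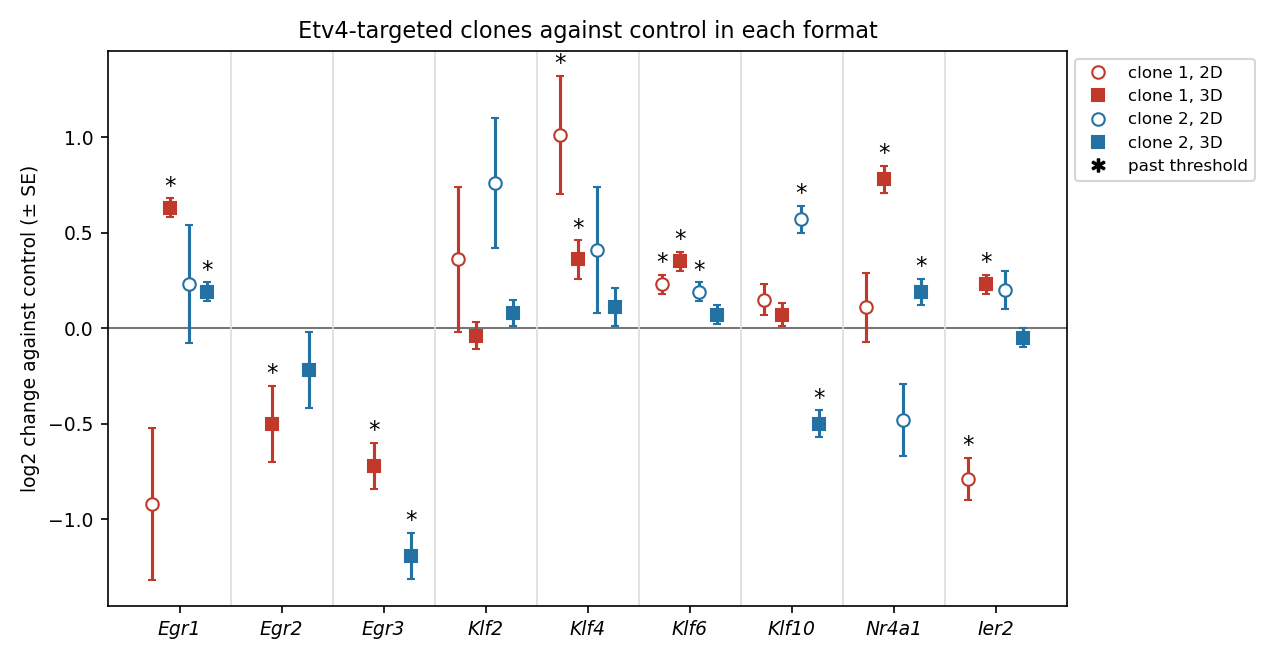
Log2 change against control (vertical axis) of each member (horizontal axis) for clone 1 and clone 2, with open circles for 2D, filled squares for 3D, lines for ± 1 SE and stars where the adjusted p was under 0.05. Egr2 and Egr3 in 2D are left out because a group held 4 counts or fewer, and Klf10 of clone 2 lies at 0.57 in 2D and -0.50 in 3D.

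Whether a clone's difference from control depended on the format was tested as an interaction, the log2 difference on collagen minus that on plastic. In clone 1, 3 of 9 members passed, all with a positive value, beside 7.02% of all genes in either direction and 3.57% higher. Ier2 (1.02 ± 0.13, adjusted p = 3.6e-06) was below control on plastic and above it on collagen. Egr1 (1.55 ± 0.40, 0.0155) and Nr4a1 (0.67 ± 0.19, 0.0342) had the same sign, but on plastic neither passed the test against control. The plastic levels of Egr1 rest on 29 counts in control and 14 in clone 1. Egr1 failed without control replicate 1 (1.37, 0.113) or clone 1 replicate 2 (1.28, 0.117) on plastic, and Nr4a1 failed without either of these (0.147 and 0.217) and without 4 single collagen libraries (0.0569 to 0.103), so that leaving out either of those plastic libraries left 1 of 9 called. Ier2 kept its call under every alternative. Klf10 (-0.08 ± 0.10), Klf2 (-0.40 ± 0.39), Klf4 (-0.65 ± 0.33) and Klf6 (0.12 ± 0.07) did not pass.

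In clone 2, 2 of 9 members passed, beside 22.2% of all genes. Klf10 (-1.07 ± 0.10, adjusted p = 2.3e-08) changed sides between the formats, above control on plastic and below it on collagen, and kept its call under every alternative. Nr4a1 (0.67 ± 0.20, 0.0169) failed without control replicate 1 (0.57, 0.101) or clone 2 replicate 2 (0.63, 0.0644) on plastic, which leaves 1 of 9. Egr1 (-0.04 ± 0.31), Ier2 (-0.25 ± 0.11), Klf2 (-0.68 ± 0.35), Klf4 (-0.30 ± 0.34) and Klf6 (-0.12 ± 0.07) did not pass, and Egr2 and Egr3, with few plastic counts, passed in neither clone.

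In the pathway lists around the members, the clones gave different counts on collagen, a contrast that was not tested. Of all genes, 22% were higher and 23% lower there in clone 1, and 11.9% and 17.4% in clone 2. In clone 1, 8 of 14 other family genes were higher and 2 lower than control, with a median log2 change of 0.29. Klf13 (0.74 ± 0.07) and Klf3 (0.32 ± 0.06) were higher and Klf8 (-2.20 ± 0.29) was lower. Egr4 had 33 counts in the 2 control libraries and 0 in clone 1, at least 11.4-fold lower. In clone 2, 1 of 14 was higher and 6 were lower, with a median of -0.17, and Ier5 (-1.01 ± 0.09), Klf9 (-0.73 ± 0.09), Klf7 (-0.55 ± 0.08) and Klf13 (-0.28 ± 0.07) were lower. Ier5 and Klf7 lie on chromosome 1, whose median in clone 2 on collagen was -0.53, so Klf7 was at about the level of its chromosome. In Klf7, 39.4% of the exon length overlaps Gm26649 or Gm13748 on the opposite strand, and as the strand setting of the counting is not known its counts are uncertain.

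Of the 21 AP-1 and other immediate early genes, 13 were higher and 4 lower in clone 1 on collagen, with a median of 0.23, and 5 were higher and 6 lower in clone 2, with a median of -0.04. The shares of all genes were 22% higher and 23% lower in clone 1 and 11.9% and 17.4% in clone 2. In clone 1, Cyr61 (1.88 ± 0.05) and Ctgf (1.18 ± 0.09), matricellular genes of the YAP and SRF programs, and Dusp1 (1.79 ± 0.05) were higher, and Socs3 (-0.87 ± 0.08), a cytokine signalling inhibitor, was lower. In clone 2, Atf3 (-0.69 ± 0.06), a stress-induced AP-1 relative, was lower and Ctgf (0.76 ± 0.09) and Mafk (0.33 ± 0.07) were higher. Fosl1 (-0.56 ± 0.06) was lower there too, with 57.2% of its exon length shared with Ccdc85b on the opposite strand. Atf3 lies on chromosome 1, where the median in clone 2 was -0.53, and Socs3 on chromosome 11, where the median in clone 1 was -0.43. Of the 15 upstream factors and corepressors, 4 were higher and 5 lower in clone 1 and 1 was higher and 5 lower in clone 2. Mapk7, the gene of ERK5, was lower in clone 1 (-0.59 ± 0.08), and Nab1 (-0.57 ± 0.06), a corepressor of the Egr proteins, and Elk4 (-0.45 ± 0.05) were lower in clone 2. These sizes are near the medians of their chromosomes, -0.43 in clone 1 for chromosome 11, which carries Mapk7, and -0.53 in clone 2 for chromosome 1, which carries Nab1 and Elk4. The part of the chromosome-wide differences in these list genes was not tested.

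On plastic, 39.8% of all genes passed in either direction in clone 1 and 33.9% in clone 2. Of the 14 other family genes, 3 were higher and 2 lower in clone 1, and 1 was higher and 4 lower in clone 2. Klf13 was higher in clone 1 (1.07 ± 0.09), and Klf9 (-1.52 ± 0.14) and Ier5 (-0.73 ± 0.09) were lower in clone 2. Of the immediate early genes, 8 were higher and 6 lower in clone 1 and 5 higher and 2 lower in clone 2. Junb (-0.84 ± 0.06) was lower and Dusp1 (1.02 ± 0.13) higher in clone 1. Of the upstream list, 3 were higher and 6 lower in clone 1 and 1 was higher and 2 lower in clone 2, and Nab1 was lower in both (-0.54 ± 0.07 and -0.69 ± 0.07), beside chromosome 1 medians of -0.10 and -0.29.

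With the mean of each format removed, log2 levels over the 12 libraries were compared between each member and 9753 other genes of at least 5 CPM. The points share libraries in pairs and only 6 groups, so the values describe these libraries. Egr1 was most like Nr4a2 (r = 0.929), Siglec15 (0.921) and Pramef8 (0.908). Klf6 was most like Plxna4 (0.983), Fam83h (0.982) and Ppp1r13b (0.98). Nr4a1 was most like Lipe (0.971), Haus2 (0.939) and Rmi2 (0.918), and Ier2 most like Smad5 (0.952), Rad18 (0.948) and Sgk1 (0.944). Klf10 was most like Smc2 (0.962), Hist1h4f (0.96) and Tpm4 (0.949). Egr3, whose plastic counts are few, was most like Yae1d1 (0.948), Ankrd49 (0.946) and Cpsf1 (0.943). For Klf2 the genes were Srsf4 (0.954), Syap1 (0.899) and Unc45a (0.888), for Klf4 Phrf1 (0.954), Mark4 (0.903) and Mast4 (0.893), and for Egr2, whose plastic counts are few, Lrrc20 (0.905), Evi2a (0.902) and Hacd2 (0.901). Among the members, Egr1 and Ier2 had r = 0.825, Klf6 and Nr4a1 0.617 and Egr1 and Nr4a1 0.157, so the members did not follow a single pattern across the clones. Hist1h4f belongs to a family of near-identical genes and is uncertain.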

How the data were processed

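Polyadenylated RNA of 12 libraries was prepared with a stranded TruSeq kit, per the labels' protocols. The authors deposited whole-number read counts by gene symbol, with the 2D and 3D libraries in separate tables. The submitters' processing notes name STAR 2.7.9a, featureCounts, FastQC 0.11.9, Cell Ranger 3.0.0, R 4.1.1 and build mm10. What each tool did, and whether counting used strand, are not given in the sources used here.

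The tables were merged on gene symbol and fitted in R 4.3.3 with edgeR 4.0.16 (filterByExpr with a minimum count of 10, TMM scaling, a mean for each of 6 groups, quasi-likelihood F-test, two-sided). p-values were adjusted by the Benjamini-Hochberg method over all 13763 genes tested in each of 11 comparisons, and the threshold was 0.05. Residual degrees of freedom were 6 and the biological coefficient of variation was 4.51%. The script was tested on simulated data. SE is that of the fitted log2 change. Ratios of summed counts are given with 95% exact intervals, or as a bound from a floor of 3 counts over the group where it held 0.

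The members and gene lists were chosen with earlier results of these data known. All 9 members are given in each comparison, and of each other list up to 4 genes with the smallest p. Genes of like pattern are the 3 with the highest Pearson r of log2 CPM (prior count 2). Alternatives were DESeq2 1.42.0 size factors, its Wald test, no filter, a minimum count of 50, 2 abundant predicted genes left out, chromosomes centred (each chromosome's median removed by group), each format fitted alone, a replicate block and each library left out in turn. Gene positions are from GENCODE M21, promoters from RefSeq and motifs were searched on both strands, the CArG box and the MEF2 motif in their degenerate forms.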

Additional observations from a re-analysis of the deposited data

Results flagged for a closer look

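The test of the difference between formats set 5 member values apart. Each value is the log2 difference from control on collagen minus that on plastic. In clone 1 it was 1.02 for Ier2 (-0.79 on plastic, 0.23 on collagen), 1.55 for Egr1 (-0.92 and 0.63) and 0.67 for Nr4a1 (0.11 and 0.78). In clone 2 it was 0.67 for Nr4a1 (-0.48 and 0.19) and -1.07 for Klf10 (0.57 and -0.50). The calls of Egr1 and of Nr4a1 in both clones were lost when single libraries were left out, as given with the interaction above. Both Nr4a1 values use the same control libraries, where Nr4a1 was at 5.73 and 4.99 CPM on plastic. Groups of 2 libraries are too small for a test of single outlying libraries.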

How the results depend on the processing

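Of 99 member values, 59 passed the threshold, and 12 of these missed it under at least 1 of the 20 alternative settings. Of the 40 values that did not pass, 8 passed under at least 1 setting. No called value changed sign. In 25 instances a value changed sign with no call on either side.

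Collagen against plastic kept its direction for every member whichever library was left out, higher throughout except for Klf10 in clone 2, which was lower. Egr2 and Egr3 entered the test only through the 3D libraries, so their direction was fixed in advance. The number called with 1 library left out ran from 2 to 4 for clone 1 against control on plastic, 5 to 7 on collagen, 1 to 3 for clone 2 against control on plastic and 2 to 4 on collagen. It ran from 3 to 4 for clone 2 against clone 1 on plastic, where Klf4 came in as Nr4a1 or Egr1 dropped out without clone 1 replicate 1 or clone 2 replicate 1, and 6 to 7 on collagen, from 1 to 3 for the interaction of clone 1 and from 1 to 2 for that of clone 2. A fit of the plastic libraries alone tested 7 members and called 1 for clone 2 against control and 2 for clone 2 against clone 1. A fit of the collagen libraries alone called 5 and 9 in the same comparisons, with Klf4 gained in the first and Egr2 and Klf2 in the second. Leaving out a library of a pair assumes that the lone library varies like the other groups.

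Replicate numbers are shared across groups, but the labels do not say that they mark a shared day or culture. Differences between replicates 1 and 2 had correlations of -0.0876 to 0.165 between groups of the same format, over 9761 genes. These values show no plain pairing by number, but they cannot exclude a shared day or culture, which remains unknown. With a replicate block, Nr4a1 in clone 2 against control on plastic passed (-0.50, adjusted p = 0.0376), Klf4 in clone 2 against clone 1 on collagen did not (0.0558), and the other counts of called members were 3, 7, 4, 4, 9, 9, 9, 3 and 2, as without it.

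Centring removed chromosome medians of up to -0.53 (chromosome 1, clone 2 against control on collagen) and 0.46 (chromosome 11, clone 2 against clone 1 on collagen). It ended the calls of Egr2 in clone 1 on collagen (-0.38, adjusted p = 0.15) and of Nr4a1 between the clones on plastic (-0.48, 0.0505), and Klf6 in clone 2 on collagen (0.21, 0.00374) and Klf4 between the clones on plastic (-0.86, 0.0194) passed. It also lowered the median of all genes by up to 0.109 in the comparison of formats (-0.109 in clone 2), and the other scalings moved it by at most 0.0748. Depth limits Egr2 and Egr3 on plastic, where each group held 11 counts or fewer.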

Other observations

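On collagen the heat shock and stress list gave different counts in the clones, a contrast that was not tested. Of all genes, 22% were higher and 23% lower there in clone 1, and 11.9% and 17.4% in clone 2. In clone 1, 3 of 10 tested genes were higher and 2 lower than control, led by Hsph1 (log2 1.15 ± 0.05, adjusted p = 1.1e-15 by edgeR's quasi-likelihood test), a cochaperone of Hsp70. In clone 2, 1 of 10 was higher and 7 were lower, among them Hspe1 (-0.77 ± 0.06), Hspd1 (-0.72 ± 0.05), Hsph1 (-0.64 ± 0.05) and Hspa1b (-0.50 ± 0.08). Hspe1 and Hspd1 are neighbours on chromosome 1, whose median in clone 2 on collagen was -0.53, and the part of this chromosome-wide difference was not tested. Nr4a1 and Egr1 were called higher than control in both clones on collagen, where Hsph1 was lower in clone 2. Both clone 2 calls were lost when single collagen libraries were left out, so this difference in sign is uncertain. On plastic, 5 of 10 were higher and 1 lower in clone 1, and 3 higher and 2 lower in clone 2. There 39.8% of all genes passed in clone 1 and 33.9% in clone 2.

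Nr4a2, the gene most like Egr1 over the libraries, was lower than control in clone 1 on plastic (-0.98 ± 0.26, adjusted p = 0.00328), and higher on collagen (0.32 ± 0.09, 0.0061), with an interaction of 1.30 ± 0.27 (adjusted p = 0.00299). It is named for its likeness to Egr1 in these same libraries, so a pattern like that of Egr1 is not a separate observation. Of the 21 AP-1 and other immediate early genes, 7 had a positive interaction in clone 1, 2 a negative one and 12 did not pass. Their median was 0.12, and 7.02% of all genes passed. Cyr61 (1.57 ± 0.08), Ctgf (1.02 ± 0.12) and Junb (0.62 ± 0.07) were positive, and Per1 (-1.11 ± 0.18) was negative. Etv1, a paralog of Etv4, was higher on collagen than on plastic in control (2.35 ± 0.08), and higher than control on plastic in both clones (0.52 ± 0.09 and 0.50 ± 0.09). The medians of its chromosome 12 on plastic were 0.18 and 0.17. On collagen Etv1 did not pass in clone 1 (0.02 ± 0.06) and was 0.16 ± 0.06 in clone 2. Its interactions passed in both clones (-0.50 ± 0.11 and -0.35 ± 0.11).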
